A study of Mus musculus with 15 samples.

Results

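Toll-like receptors are the sensors with which macrophages detect microbial lipids, proteins and nucleic acids, and the 10 genes followed here are members of that family beside the better-known *Tlr2* and *Tlr4*, together with a chaperone. They were taken by symbol from a list made by function and cell compartment, and all 10 had a row among the 51763 genes of the deposited count table. Of the 10, 4 encode surface proteins (*Tlr1*, *Tlr5*, *Tlr6* and the Toll-like receptor homologue *Cd180*), 5 encode receptors of the endosome (*Tlr3*, *Tlr7*, *Tlr8*, *Tlr9* and *Tlr13*) and *Unc93b1* encodes the chaperone of the endosomal receptors. The study asked how macrophages respond to the 2 redox forms of HMGB1 (high mobility group box 1), a protein of the nucleus that acts as an alarm signal outside the cell, in comparison with lipopolysaccharide (LPS), the bacterial ligand of *Tlr4*.

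RNA was sequenced from bone marrow-derived macrophages (BMDMs), that is, macrophages grown in culture from bone marrow with macrophage colony-stimulating factor. All 15 libraries came from wild-type female C57BL/6NTac mice of 8 to 10 weeks, and the cells of 5 mice were pooled before seeding, so the 3 libraries of each condition are technical replicates of 1 pool. Errors and p-values below therefore describe how cultures and libraries varied, and say nothing of the variation between mice. Cells were stimulated for 24 h in 5 ways. PBS served as the control. HMGB1 was given at 5 µg/mL, either in its fully reduced form, called frHMGB1, or in its disulfide form, called dsHMGB1. LPS was given at 1 µg/mL, and a last set of wells received LPS together with interferon γ at 20 ng/mL (LPS/IFNγ), the mixture used to obtain classically activated M1 cells. The reduced HMGB1 was a recombinant, tagged protein made in house in buffers with the reducing agent dithiothreitol, and the disulfide form was made without it and came from another laboratory, so redox form and source of the protein cannot be told apart. For the LPS/IFNγ libraries the sources disagree on the LPS concentration, given as 1 µg/mL in the treatment field and as 100 ng/mL in the protocol text of the labels. Between LPS and LPS/IFNγ, the addition of interferon and a difference in LPS concentration can thus not be told apart.

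Surface receptors are displayed on the plasma membrane. *Tlr1* and *Tlr6* each pair with *Tlr2* to recognise lipopeptides, *Tlr5* recognises flagellin, and *Cd180* forms a complex with the secreted protein *Ly86* (MD-1). Endosomal receptors bind nucleic acids taken up or released inside the cell: *Tlr3* double-stranded RNA, *Tlr7* and *Tlr8* single-stranded RNA and its breakdown products, *Tlr9* unmethylated CpG DNA, and *Tlr13*, which mice have and humans lack, bacterial ribosomal RNA. *Unc93b1* escorts them from the endoplasmic reticulum to the endosome, where proteases cut them into their active form.

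Total counts lay between 40934540 and 80925478 per library, and 16919 genes passed the filter on low counts and were tested, among them 9 of the 10 members. Macrophage genes (*Adgre1*, *Csf1r*, *Itgam*, *Cd68*, *Mertk*, *Fcgr1*, *Lyz2* and *C1qa*) together made up 13323 to 27310 CPM (reads scaled to the library total), while the 6 B cell genes reached at most 1.25 CPM and the 6 genes of plasmacytoid dendritic cells at most 3.09 CPM, which are the other cell types best known for *Tlr7* and *Tlr9*. In PBS *Lyz2* had 778078 to 958671 normalized counts, against at most 136131 for any other of these macrophage genes (*Csf1r*), so the macrophage sum mostly reflects *Lyz2*. This sum was 22096 to 26172 CPM in PBS and lower in the inflammatory conditions, down to 13323 to 13638 CPM in LPS/IFNγ. Under the scaling used for the tests, however, the median log2 fold change of these 8 genes over PBS was 0.29, 0.10 and 0.14 with dsHMGB1, LPS and LPS/IFNγ, with 2, 3 and 3 called higher (*Adgre1* and *Fcgr1* in all 3 conditions, *Mertk* in the last 2) and 0, 1 and 2 called lower (*Csf1r* in the last 2, *Lyz2* in LPS/IFNγ). Of all tested genes 23.3%, 26.7% and 29.0% were called higher in these conditions and 24.2%, 36.2% and 31.2% lower. Without PBS replicate 3 the macrophage counts were 4, 4 and 5 higher (29.8%, 32.9% and 33.3% of all tested genes) and 1, 1 and 2 lower (29.0%, 38.3% and 34.4%). The plasmacytoid sum was 0.132 to 0.623 CPM in PBS and 1.62 to 3.09 CPM in the inflammatory conditions, where *Ccr9* was called higher throughout, *Spib* in dsHMGB1 and LPS, and *Pacsin1* with LPS/IFNγ, while *Siglech* was at 0 in all of these libraries. Of the T cell list, *Cd3d*, *Cd3e*, *Cd3g* and *Cd8a* were at 0 in every library. The sum of conventional dendritic cell genes was 4.32 to 5.71 CPM in PBS, 3.42 to 4.48 CPM with dsHMGB1, 7.93 to 8.85 CPM with LPS and 13.9 to 15.001 CPM with LPS/IFNγ. Of these genes *Zbtb46* was called higher in the 3 inflammatory conditions and *Xcr1* in both LPS conditions, while *Clec9a* was called lower in all 3 and *Itgae* in LPS/IFNγ. The fibroblast genes *Col1a1*, *Col1a2*, *Col3a1* and *Dcn* were called higher in LPS and LPS/IFNγ, and *Dcn* also in dsHMGB1, the neutrophil genes *Camp* in dsHMGB1 and LPS and *S100a8* in LPS, and the B cell gene *Cd79b* in LPS/IFNγ. The sums of the other lists over all libraries were 1.97 to 5.47 CPM for neutrophils (*S100a9*, *Ly6g* and *Mpo* at 0 in every library), 15.8 to 197.7 CPM for T cells, all of it from *Cd4* and *Lck* (the latter called higher in dsHMGB1, LPS and LPS/IFNγ), and 118.1 to 282.2 CPM for fibroblasts. The part of such cells in the results below was not tested. In bulk RNA, fewer cells of a type and less RNA per cell cannot be told apart.

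A control library stood apart and touches almost every comparison below. PBS replicate 3 correlated with the other 2 PBS libraries at Pearson's r = 0.934 and 0.939 on log2 CPM, against 0.987 to 0.993 for every other pair of replicates. Its counts also depended on transcript length: relative to the mean of PBS replicates 1 and 2, the median protein-coding gene was 2.83-fold higher when its exons summed to at most 1500 bases and 0.594-fold when they exceeded 6000 bases. In the other libraries the ratio of these 2 medians, each against the remaining libraries of its condition (PBS replicates 1 and 2 against each other), was 0.747 to 1.44, with dsHMGB1 replicate 2 and dsHMGB1 replicate 1 at the ends, and in PBS replicate 3 it was 4.77. All members have 3031 to 5207 exon bases, a range in which the median gene of PBS replicate 3 had a ratio of 0.927 (3000 to 6000 bases, quartiles 0.632 and 1.35). Most members lay further out. *Tlr8* was 34.0-fold and *Tlr9* 27.1-fold lower there than in the other 2 PBS libraries, a gap of 20-fold or more that was found for 109 of the tested genes (0.644%), *Tlr7* was 3.47-fold, *Cd180* 2.56-fold and *Tlr1* 2.32-fold lower, and *Unc93b1* was higher by a factor of 1.32. The part of RNA quality or handling in this was not tested. Changes over PBS are therefore given with all libraries and, beside them, without PBS replicate 3, whose removal also narrows the spread that the single fit assigns to a gene in every condition.

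Promoters of 5 members are printed first, to show which regulatory motifs lie at genes whose changes are contrasted below. RefSeq windows (GRCm38.p6, 250 bases before to 50 bases after a transcript start, 300 in all) were at hand for 8 of the 10 members, and *Tlr7* and *Unc93b1* had none. They were searched on both strands for 4 short motifs: the interferon-stimulated response element as GAAANNGAA, the AP-1 site as TGANTCA, the PU.1 site as GAGGAAGT and the NF-kB site as GGGANTTTC. The following windows are those of *Tlr3* (chr8:45410331-45410630, minus strand), the second of 2 windows of *Tlr6* (chr5:64959117-64959416, minus strand), *Tlr8* (chrX:167264280-167264579, minus strand), *Tlr9* (chr9:106222348-106222647, plus strand) and *Tlr13* (chrX:106143025-106143324, plus strand). Capitals mark the motif matches, and each sequence runs 5′ to 3′ on the strand of its gene.
Tlr3: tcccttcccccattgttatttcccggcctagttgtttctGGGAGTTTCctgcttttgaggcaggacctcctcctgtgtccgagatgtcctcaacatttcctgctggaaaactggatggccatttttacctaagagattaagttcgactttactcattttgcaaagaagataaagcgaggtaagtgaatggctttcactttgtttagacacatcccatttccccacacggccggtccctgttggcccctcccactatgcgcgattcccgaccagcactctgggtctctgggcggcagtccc
Tlr6: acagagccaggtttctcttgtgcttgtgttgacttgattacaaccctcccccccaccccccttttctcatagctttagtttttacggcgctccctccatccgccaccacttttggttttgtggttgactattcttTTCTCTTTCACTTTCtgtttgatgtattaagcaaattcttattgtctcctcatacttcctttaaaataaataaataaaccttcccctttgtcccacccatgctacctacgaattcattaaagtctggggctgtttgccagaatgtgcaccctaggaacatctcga
Tlr8: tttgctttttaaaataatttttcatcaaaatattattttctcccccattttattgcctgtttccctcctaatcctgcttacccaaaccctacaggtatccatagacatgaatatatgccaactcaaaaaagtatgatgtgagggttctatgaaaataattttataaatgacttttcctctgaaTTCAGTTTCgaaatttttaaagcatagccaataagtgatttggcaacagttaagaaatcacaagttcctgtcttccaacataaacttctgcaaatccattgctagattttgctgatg
Tlr9: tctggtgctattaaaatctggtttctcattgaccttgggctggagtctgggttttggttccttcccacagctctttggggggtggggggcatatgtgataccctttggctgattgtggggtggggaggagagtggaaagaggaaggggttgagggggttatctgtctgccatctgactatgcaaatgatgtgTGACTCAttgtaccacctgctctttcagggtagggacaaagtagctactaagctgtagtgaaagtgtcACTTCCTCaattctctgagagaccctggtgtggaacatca
Tlr13: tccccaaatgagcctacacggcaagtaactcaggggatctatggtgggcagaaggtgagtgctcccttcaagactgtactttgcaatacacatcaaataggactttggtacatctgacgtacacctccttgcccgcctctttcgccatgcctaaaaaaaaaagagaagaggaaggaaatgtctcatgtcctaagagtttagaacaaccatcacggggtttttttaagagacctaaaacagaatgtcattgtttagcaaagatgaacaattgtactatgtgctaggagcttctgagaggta

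The capitals in *Tlr3* are an NF-kB match at −211 to −203, counted from the first transcribed base as +1, and 1.12% of all 32544 mouse windows hold such a match. In *Tlr6* they are 2 overlapping matches of the interferon-stimulated response element on the opposite strand, at −115 to −107 and −109 to −101, a motif found in 8.53% of windows. *Tlr8* had the same motif at −67 to −59, also on the opposite strand. *Tlr9* had an AP-1 match at −58 to −52 (7.79% of windows) and a PU.1 match at 11 to 18 (3.11% of windows). *Tlr13* had none of the 4, and neither had *Tlr5*, both windows of *Cd180*, the first window of *Tlr6* and the second of *Tlr1*, while the first window of *Tlr1* held 1 PU.1 match. A match is a run of letters and no evidence of binding, and no match means only that these letters are not in the window. The starts in RefSeq are not always those of the gene models used for position and length (GENCODE M21), which for *Tlr3* begin upstream, at 45411080.

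**Figure D1:**
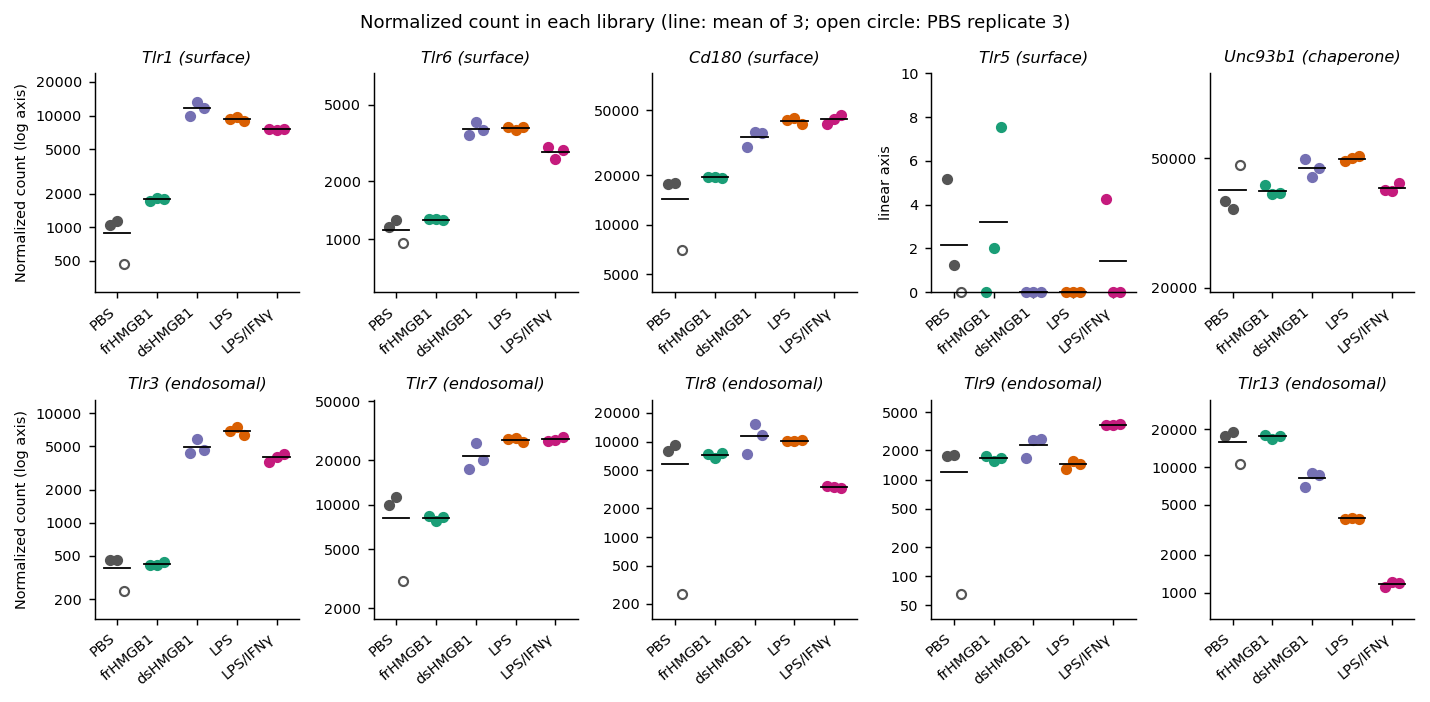
Normalized counts (reads per gene scaled by DESeq2 size factors, log axis except for *Tlr5*) of the 10 members in each of the 15 libraries, with a line at the mean of 3 and an open circle for PBS replicate 3. *Tlr1*, *Tlr6*, *Cd180*, *Tlr3* and *Tlr7* lay higher in every dsHMGB1, LPS and LPS/IFNγ library than in every PBS and frHMGB1 library, *Tlr13* lay lower in them, and *Tlr8* and *Tlr9* in PBS replicate 3 (253.0 and 65.6) lay far below all other libraries.

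Of the surface receptors, *Tlr1* rose with every stimulation and *Tlr6* and *Cd180* with the 3 inflammatory ones. *Tlr1* (ENSMUSG00000044827, chr5:64924679-64933563, minus strand) had 1037, 1147 and 469.8 normalized counts in PBS replicates 1 to 3, and 1713, 1818 and 1787 with frHMGB1. It reached 9995, 13298 and 11691 with dsHMGB1, 9244, 9753 and 8924 with LPS, and 7528, 7444 and 7593 with LPS/IFNγ. Every stimulated library was above every PBS library, and the 3 inflammatory conditions did not overlap with each other, dsHMGB1 being the highest. The log2 fold change over PBS was 1.00 ± 0.25 (SE) with frHMGB1 (adjusted p = 0.0265), 3.72 ± 0.25 with dsHMGB1 (1.06e-07), 3.39 ± 0.25 with LPS (1.66e-07) and 3.09 ± 0.25 with LPS/IFNγ (3.33e-07). Here and below, fold changes and errors come from DESeq2 and adjusted p from edgeR's quasi-likelihood test with Benjamini-Hochberg adjustment over all tested genes. Without PBS replicate 3 they were 0.70, 3.41, 3.08 and 2.78, all called. The frHMGB1 call of *Tlr1* was lost without frHMGB1 replicate 1, 2 or 3 (adjusted p = 0.0671, 0.0861 or 0.0772) and in a fit of frHMGB1 and PBS alone (0.372), and it was 5.05e-05 without PBS replicate 3.

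*Tlr6* (ENSMUSG00000051498, chr5:64952031-64960097, minus strand), which lies next to *Tlr1* on chromosome 5, started from a similar level per kb of exon and moved less. Its normalized counts were 1155, 1255 and 955.9 in PBS, 1268, 1268 and 1259 with frHMGB1, 3472, 4048 and 3682 with dsHMGB1, 3842, 3693 and 3841 with LPS, and 3023, 2625 and 2924 with LPS/IFNγ. dsHMGB1 and LPS overlapped, LPS/IFNγ lay below both, and frHMGB1 lay just above PBS. Over PBS the log2 fold change was 0.17 ± 0.11 with frHMGB1 (adjusted p = 0.494), 1.73 ± 0.11 with dsHMGB1 (6.39e-08), 1.75 ± 0.11 with LPS (4.66e-08) and 1.34 ± 0.11 with LPS/IFNγ (5.15e-07). In the fit without PBS replicate 3 they were 0.07, 1.63, 1.65 and 1.24, the last 3 called. The exons of both genes share 454 stretches of 50 bases, and 15.4% of such stretches of *Tlr1* and 12.3% of those of *Tlr6* also occur in other genes. How reads that fit both were counted is not given in the sources used here, so the split between the 2 receptors is uncertain to that extent. None of the other 8 members shared a stretch of this length with another gene.

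*Cd180* (ENSMUSG00000021624, chr13:102693558-102739629, plus strand) was the surface member with the highest level per kb of exon. It had 17778, 18104 and 7013 normalized counts in PBS and 19606, 19555 and 19373 with frHMGB1. Levels were 29915, 36838 and 36428 with dsHMGB1, 43398, 44739 and 41162 with LPS, and 41301, 43962 and 46492 with LPS/IFNγ. In these counts both LPS conditions overlapped and lay above dsHMGB1, which lay above frHMGB1 and PBS. The gap between dsHMGB1 and the LPS conditions depended on scaling. With counts scaled to the library total, the log2 fold change of dsHMGB1 was 0.009 over LPS and −0.029 over LPS/IFNγ. The log2 fold change over PBS was 0.45 ± 0.27 with frHMGB1 (adjusted p = 0.453), 1.27 ± 0.27 with dsHMGB1 (0.00201), 1.59 ± 0.27 with LPS (0.000307) and 1.62 ± 0.27 with LPS/IFNγ (0.000216). When PBS replicate 3 was left out the rises were smaller, with smaller errors, at 0.94 ± 0.09 (1.66e-08), 1.26 ± 0.09 (2.13e-10) and 1.28 ± 0.09 (1.68e-10), and the frHMGB1 value was 0.12. In a fit of dsHMGB1 and PBS alone the rise of *Cd180* missed the threshold (0.0545). In its exons, 182 bases overlap those of *Mast4* on the opposite strand, which had at most 386.5 normalized counts in any library.

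*Ly86*, without which *Cd180* is poorly displayed, had other changes over PBS. Its mean was 5184 ± 1605 normalized counts (SD, n = 3) in PBS, 5725 ± 766 with dsHMGB1, 7241 ± 116 with LPS and 4078 ± 386 with LPS/IFNγ. With all libraries it was called higher over PBS in LPS (log2 fold change 0.48 ± 0.19, adjusted p = 0.0258), and not called in dsHMGB1 (0.14 ± 0.19, 0.455) or LPS/IFNγ (−0.35 ± 0.19, 0.0588). PBS replicate 3 was 1.65-fold higher in *Ly86* than the other PBS libraries, whereas it was low in *Cd180*, and without it *Ly86* was called higher in dsHMGB1 (0.42 ± 0.10, 0.00120) and LPS (0.76 ± 0.10, 1.88e-06) and was at −0.07 ± 0.10 (0.195) in LPS/IFNγ. *Ly86* was lower in LPS/IFNγ than in LPS (−0.83 ± 0.19, 0.00188), a pair between which *Cd180* differed by 0.03 ± 0.27 (0.901).

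*Tlr5* (ENSMUSG00000079164, chr1:182954788-182976044, plus strand) was near the limit of detection. It had 5.17, 1.26 and 0 normalized counts in PBS, 0, 2.04 and 7.55 with frHMGB1, 0 in all 6 dsHMGB1 and LPS libraries, and 4.24, 0 and 0 with LPS/IFNγ. It failed the filter on low counts and was not tested.

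Among the endosomal receptors, 2 rose, 1 fell and 2 depended on the condition and on PBS replicate 3. *Tlr3* (ENSMUSG00000031639, chr8:45395665-45411080, minus strand) had the largest rise of the members with LPS and with LPS/IFNγ, while with dsHMGB1 its value was close to that of *Tlr1* (3.68 and 3.72 on the log2 scale). It had 454.5, 452.8 and 239.0 normalized counts in PBS and 411.6, 409.8 and 433.6 with frHMGB1. These became 4322, 5864 and 4630 with dsHMGB1, 6875, 7449 and 6324 with LPS, and 3629, 3968 and 4288 with LPS/IFNγ. All 9 inflammatory libraries lay above every PBS and frHMGB1 library with a wide gap, and LPS was the highest condition. The log2 fold change was 0.12 ± 0.22 with frHMGB1 (adjusted p = 0.819), 3.68 ± 0.21 with dsHMGB1 (2.35e-08), 4.16 ± 0.21 with LPS (5.44e-09) and 3.37 ± 0.21 with LPS/IFNγ (3.06e-08). With PBS replicate 3 removed the 3 rises were 3.44, 3.92 and 3.12, and the frHMGB1 value was −0.11. It shares 381 exon bases with the antisense gene *Gm45542*, which had at most 5.14 normalized counts.

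*Tlr7* (ENSMUSG00000044583, chrX:167304929-167330558, minus strand) was abundant at rest and rose further. It had 10022, 11268 and 3066 normalized counts in PBS, 8365, 7731 and 8265 with frHMGB1, 17518, 26076 and 20068 with dsHMGB1, 28032, 28149 and 26408 with LPS, and 27038, 27438 and 28595 with LPS/IFNγ. In these counts both LPS conditions overlapped, and dsHMGB1 lay below them and above PBS and frHMGB1. With counts scaled to the library total, the log2 fold change of dsHMGB1 was −0.042 over LPS and −0.061 over LPS/IFNγ. The log2 fold change was 1.39 ± 0.34 with dsHMGB1 (adjusted p = 0.00573), 1.76 ± 0.34 with LPS (0.000962) and 1.77 ± 0.34 with LPS/IFNγ (0.000791), and 0.99 ± 0.12, 1.36 ± 0.12 and 1.37 ± 0.12 without PBS replicate 3. With frHMGB1 the value was 0.00 ± 0.34 (0.999) with all libraries, and *Tlr7* was called lower (−0.39 ± 0.12, 0.0202) without PBS replicate 3. In a fit of dsHMGB1 and PBS alone the rise of *Tlr7* missed the threshold (0.0860).

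*Tlr8* (ENSMUSG00000040522, chrX:167242696-167264329, minus strand) is the neighbour of *Tlr7* on the X chromosome. It had 7940, 9262 and 253.0 normalized counts in PBS, 7417, 6722 and 7640 with frHMGB1, and 7473, 15361 and 11662 with dsHMGB1. LPS gave 10192, 10137 and 10327, and LPS/IFNγ 3463, 3371 and 3270. The LPS/IFNγ libraries were below all others except PBS replicate 3, and the dsHMGB1 libraries spread over more than a factor of 2, with replicate 1 the lowest. With all libraries no difference of *Tlr8* from PBS was called, and the log2 fold changes were 0.32 ± 0.70 (adjusted p = 0.880), 0.98 ± 0.70 (0.315), 0.81 ± 0.70 (0.415) and −0.79 ± 0.70 (0.335) in the order frHMGB1, dsHMGB1, LPS and LPS/IFNγ. With PBS replicate 3 omitted they were −0.24 ± 0.22, 0.42 ± 0.22, 0.24 ± 0.22 and −1.36 ± 0.22, of which the last was called (9.28e-07).

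*Tlr9* (ENSMUSG00000045322, chr9:106222598-106226883, plus strand) was highest with LPS/IFNγ. It had 1742, 1813 and 65.6 normalized counts in PBS, 1757, 1569 and 1662 with frHMGB1, 1661, 2574 and 2614 with dsHMGB1, 1293, 1545 and 1460 with LPS, and 3682, 3666 and 3743 with LPS/IFNγ. The LPS/IFNγ libraries were above all other 12, and those of LPS were the lowest apart from PBS replicate 3. None of its differences from PBS was called with all libraries (log2 fold change with LPS/IFNγ 1.61 ± 0.66, adjusted p = 0.0677). After removal of PBS replicate 3 *Tlr9* was called higher in LPS/IFNγ by 1.05 ± 0.14 (3.83e-06) and in dsHMGB1 by 0.36 ± 0.15 (0.0434), and lower in LPS (−0.32 ± 0.15, 0.0205), where the value with all libraries had been 0.25 ± 0.66 (0.861).

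*Tlr13* (ENSMUSG00000033777, chrX:106143204-106160493, plus strand) was the member that fell, to a different level in each inflammatory condition. It had 17813, 19212 and 10525 normalized counts in PBS, 18201, 16871 and 17649 with frHMGB1, 6997, 9053 and 8612 with dsHMGB1, 3869, 3955 and 3886 with LPS, and 1118, 1213 and 1183 with LPS/IFNγ. The libraries of dsHMGB1, LPS and LPS/IFNγ lay in 3 separate ranges, each below the one before, and all below PBS. The log2 fold change was −0.95 ± 0.19 with dsHMGB1 (adjusted p = 0.000945), −2.02 ± 0.19 with LPS (7.09e-07) and −3.76 ± 0.19 with LPS/IFNγ (3.11e-09), and 0.15 ± 0.19 with frHMGB1 (0.748). Without PBS replicate 3, the 3 decreases were −1.17, −2.25 and −3.99, and the frHMGB1 value was −0.07.

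*Unc93b1* (ENSMUSG00000036908, chr19:3935186-3949340, plus strand), the chaperone of the endosomal receptors, had the highest level per kb of exon, and the largest of its log2 fold changes over PBS, that with LPS, was 0.32 with all libraries and 0.46 without PBS replicate 3. It had 36972, 34830 and 47468 normalized counts in PBS, 41179, 38779 and 38944 with frHMGB1, 49576, 43813 and 46590 with dsHMGB1, 48947, 49839 and 50585 with LPS, and 39790, 39523 and 42026 with LPS/IFNγ. PBS replicate 3 was above the other PBS libraries here and overlapped with dsHMGB1. The log2 fold change over PBS was called in LPS (0.32 ± 0.11, adjusted p = 0.0213) and not in dsHMGB1 (0.23 ± 0.11, 0.0567), LPS/IFNγ (0.02 ± 0.11, 0.963) or frHMGB1 (−0.0043 ± 0.11, 0.943). The LPS call was lost without PBS replicate 1 (0.0627) or PBS replicate 2 (0.0777), and in a fit of both conditions alone (0.0871), and without PBS replicate 3 both dsHMGB1 (0.38 ± 0.06, 5.03e-05) and LPS (0.46 ± 0.06, 4.39e-06) were called higher. The direction for *Unc93b1* also depended on scaling. With counts scaled to the library total the median of all tested genes moved by −0.35, −0.62 and −0.66 (log2) with dsHMGB1, LPS and LPS/IFNγ over PBS, and *Unc93b1* then lay at −0.11, −0.35 (0.00123) and −0.64 (6.98e-06). Relative to that shift it stayed above the median gene. The directions of *Tlr1*, *Tlr6*, *Cd180*, *Tlr3*, *Tlr7* and *Tlr13* over PBS in these 3 conditions, and their calls, were the same under both scalings, while *Tlr9* with LPS, called under neither, went from 0.25 to −0.55.

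**Figure D2:**
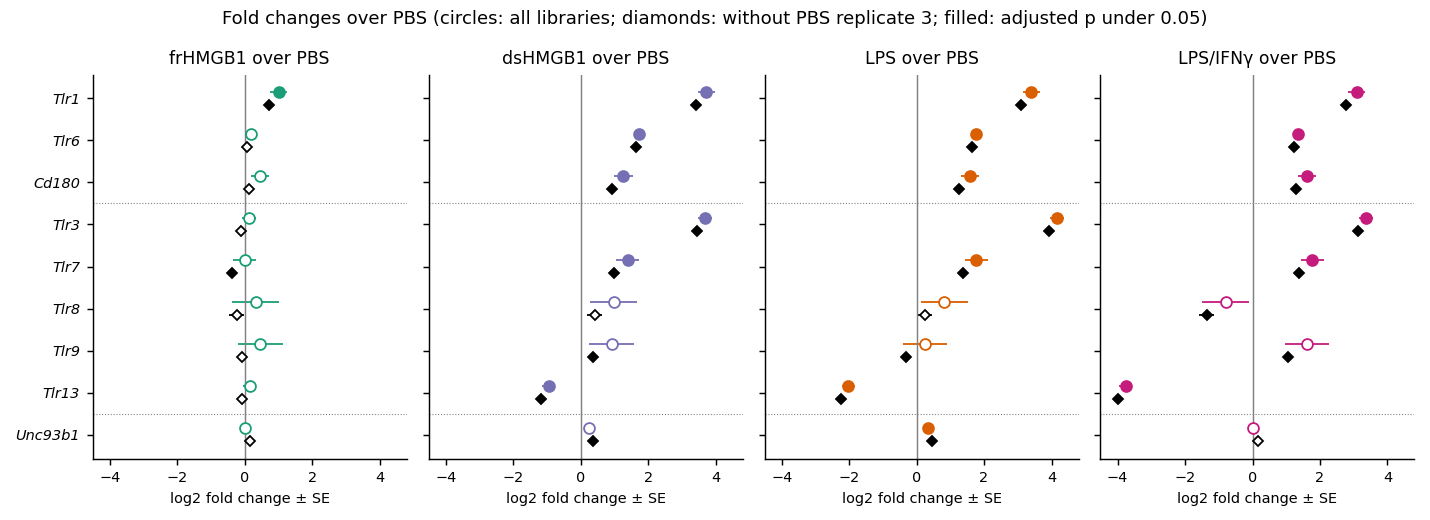
Log2 fold change over PBS with its standard error (x axis) for the 9 tested members, in one panel per stimulation, with circles for all libraries, diamonds for the fit without PBS replicate 3 and filled symbols for an adjusted p under 0.05. *Tlr1* and *Tlr3* had rises of 3.09 to 4.16 in the 3 inflammatory conditions and *Tlr13* fell to −3.76 with LPS/IFNγ, while the wide bars of *Tlr8* and *Tlr9* (0.66 to 0.70) shrank without PBS replicate 3.

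Counted over the 9 tested members, frHMGB1 raised 1 (*Tlr1*, against 1.31% of all tested genes called higher) and lowered 0 by edgeR (against 5.69% called lower), also 0 at an unadjusted p under 0.05 and 0 by DESeq2. dsHMGB1 raised 5, namely *Tlr1*, *Tlr6*, *Cd180*, *Tlr3* and *Tlr7* (23.3% of all genes), and lowered *Tlr13* (24.2%). LPS raised the same 5 and *Unc93b1* (26.7%) and lowered *Tlr13* (36.2%), and LPS/IFNγ raised the same 5 (29.0%) and lowered *Tlr13* (31.2%). These comparisons share the PBS libraries. When PBS replicate 3 was left out the counts were 1 higher and 1 lower with frHMGB1 (8.41% and 9.09% of all genes), 7 and 1 with dsHMGB1 (29.8% and 29.0%), 6 and 2 with LPS (32.9% and 38.3%), and 6 and 2 with LPS/IFNγ (33.3% and 34.4%). The additions were *Tlr7* lower in frHMGB1, *Tlr9* and *Unc93b1* higher in dsHMGB1, *Tlr9* lower in LPS, and *Tlr9* higher and *Tlr8* lower in LPS/IFNγ. dsHMGB1 against frHMGB1, the pair that differs in the redox form and in the source of the protein, gave the same genes as dsHMGB1 against PBS: 5 higher (27.7% of all genes) and *Tlr13* lower (23.1%). There the log2 fold changes were 2.72 ± 0.25 for *Tlr1*, 1.56 ± 0.11 for *Tlr6*, 0.82 ± 0.27 for *Cd180*, 3.56 ± 0.21 for *Tlr3*, 1.39 ± 0.34 for *Tlr7* and −1.10 ± 0.19 for *Tlr13*. The *Cd180* call (adjusted p = 0.0252) was lost without any 1 of the frHMGB1 libraries or without dsHMGB1 replicate 2 or 3 (0.0630 to 0.0718), and with counts scaled to the library total (0.41, 0.253). With PBS replicate 3 removed, 8 members were higher (35.8%) and 1 lower (32.9%).

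Among the members, the tested surface receptors rose in all inflammatory conditions, and the endosomal ones were divided. *Tlr2* and *Tlr4*, also surface receptors, are not members. *Tlr2* was called higher in all of these conditions, whereas *Tlr4* was called lower in LPS/IFNγ and not called in dsHMGB1 or LPS. All 3 tested surface members were called higher in dsHMGB1, LPS and LPS/IFNγ, and their median log2 fold change over PBS was 1.73, 1.75 and 1.62. In the same conditions 2 of 5 endosomal members were called higher and 1 lower, with medians of 0.98, 0.81 and 1.61. The median of all tested genes was −0.10, −0.21 and −0.12. Of all tested genes, 23.3%, 26.7% and 29.0% were called higher in these conditions and 24.2%, 36.2% and 31.2% lower. The endosomal medians, which fall on *Tlr8* or *Tlr9*, came down to 0.42, 0.24 and 1.05 without PBS replicate 3, and the surface medians to 1.63, 1.65 and 1.28. With frHMGB1 the medians were 0.45 and 0.15, and 0.12 and −0.11 without that library. Within LPS/IFNγ the endosomal members ranged from −3.76 (*Tlr13*) to 3.37 (*Tlr3*), and the surface members from 1.34 (*Tlr6*) to 3.09 (*Tlr1*). With 3 and 5 genes these medians are descriptions.

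**Figure D3:**
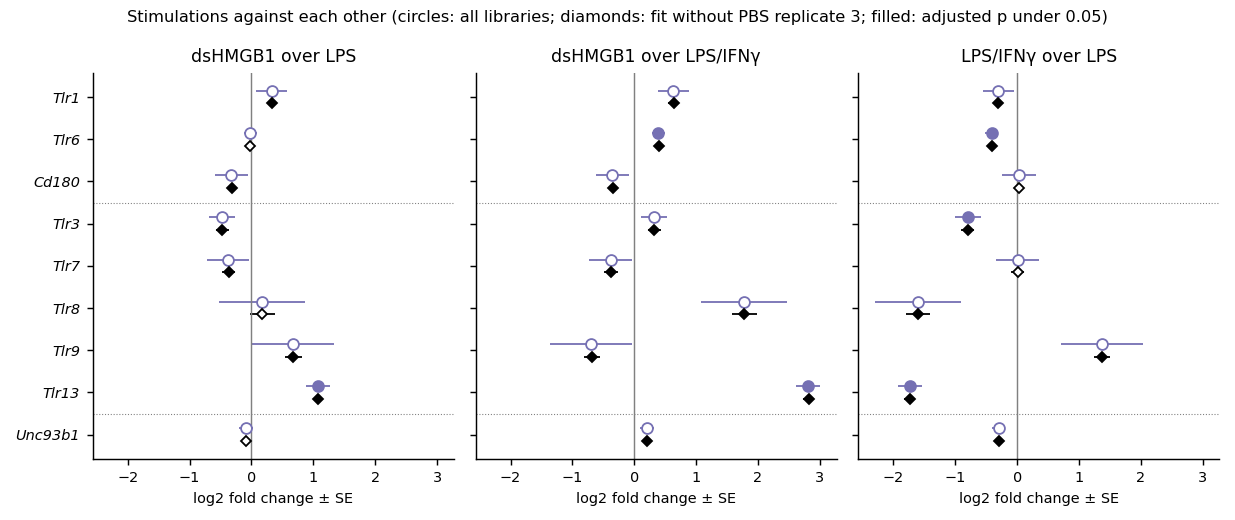
Log2 fold change with its standard error (x axis) of the 9 tested members between stimulations, drawn as in the plot of fold changes over PBS. *Tlr13* was called in all 3 panels (1.07, 2.81 and −1.74), and *Tlr8* and *Tlr9* lay on opposite sides of 0 with LPS/IFNγ over LPS (−1.60 and 1.37), with wide bars when PBS replicate 3 was in the fit.

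Compared directly, dsHMGB1 and LPS differed by edgeR in 1 member with all libraries. *Tlr13* was 2.11-fold higher in dsHMGB1 (log2 fold change 1.07 ± 0.19, adjusted p = 0.000704), and 15.8% of all tested genes were called higher and 10.6% lower. No member was called lower by edgeR, with 0 at an unadjusted p under 0.05 and 0 by DESeq2. With PBS replicate 3 omitted, a library that is in neither group and enters through the shared spread, *Tlr1* (0.33 ± 0.09), *Tlr9* (0.68 ± 0.13) and *Tlr13* were called higher and *Cd180* (−0.32 ± 0.08), *Tlr3* (−0.47 ± 0.10) and *Tlr7* (−0.37 ± 0.11) lower (25.6% and 23.3% of all genes). In a fit of the 6 libraries of these conditions alone, *Tlr1*, *Tlr9* and *Tlr13* were again called higher and *Cd180* (adjusted p = 0.0259) and *Tlr3* (0.0107) lower, while *Tlr7* missed the threshold (0.0518).

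Against LPS/IFNγ, dsHMGB1 had 2 members higher with all libraries, *Tlr13* (7.02-fold, log2 fold change 2.81 ± 0.19, adjusted p = 2.01e-07) and *Tlr6* (0.39 ± 0.11, 0.0177), with 16.5% of all genes higher and 16.7% lower. Lower were 0 by edgeR, 0 at an unadjusted p under 0.05 and 0 by DESeq2, and DESeq2 called 4 higher. The *Tlr6* call was lost without dsHMGB1 replicate 2 (0.0820) or LPS/IFNγ replicate 2 (0.0720). After removal of PBS replicate 3 all 9 tested members were called, 6 higher and 3 lower (27.9% and 25.4% of all genes). *Tlr8* was then higher in dsHMGB1 by 1.78 ± 0.20 (3.25e-08) and *Tlr9* lower (−0.69 ± 0.13, 0.000127), and in the fit of both conditions alone the adjusted p was 4.65e-05 for *Tlr8* and 0.00329 for *Tlr9*. *Cd180* and *Tlr7* were also called lower without PBS replicate 3. With all libraries and counts scaled to the library total, they lay at −0.029 and −0.061, neither called.

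LPS/IFNγ lowered 3 members relative to LPS with all libraries (9.36% of all genes called lower) and raised 0 by edgeR (16.3% higher), with 0 at an unadjusted p under 0.05 and 0 by DESeq2. The 3 lower members were *Tlr13* (−1.74 ± 0.19, adjusted p = 2.74e-05), *Tlr3* (−0.80 ± 0.21, 0.0174) and *Tlr6* (−0.41 ± 0.11, 0.0340). The *Tlr3* call was lost without LPS/IFNγ replicate 1 (0.0542), and that of *Tlr6* without any of 8 single libraries (0.0506 to 0.0881) and with the replicate number as a block (0.0509). The largest contrasts between the 2 conditions among the other members were those of *Tlr8* (3.03-fold lower, log2 fold change −1.60 ± 0.70) and *Tlr9* (2.58-fold higher, 1.37 ± 0.66), with adjusted p = 0.156 and 0.166. Their libraries did not overlap, the 3 *Tlr8* values lying between 3270 and 3463 against 10137 to 10327, and the 3 *Tlr9* values between 3666 and 3743 against 1293 to 1545. Without PBS replicate 3 the adjusted p was 2.24e-07 and 5.54e-08, and in the fit of LPS and LPS/IFNγ alone 1.47e-17 and 2.91e-14. Without that library 1 member was higher and 6 were lower (25.1% and 24.3% of all genes).

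**Figure D4:**
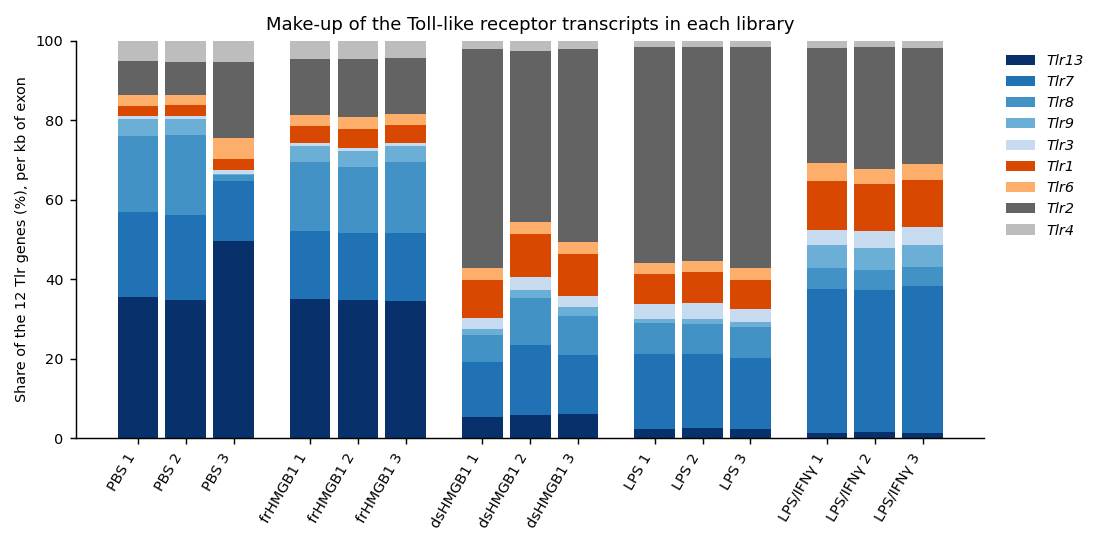
Share of each Toll-like receptor gene in the normalized counts per kb of exon summed over the 12 mouse Tlr genes (y axis, %), one bar per library, with blue for endosomal receptors, orange for *Tlr1* and *Tlr6* and grey for *Tlr2* and *Tlr4*. *Tlr13* (dark blue) made up 34.5% to 49.5% of the PBS and frHMGB1 bars and at most 6.06% of the others, where *Tlr2* or *Tlr7* took the largest share.

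To describe the make-up of the receptor transcripts, counts were divided by exon length. That length sums all annotated exons of a gene and can exceed that of the transcript expressed, so genes are compared only roughly. Per kb, the 5 endosomal receptors made up 76.5% ± 7.8 (SD, n = 3) of the transcripts of the 12 Tlr genes in PBS and 73.8% ± 0.72 with frHMGB1. This share was 35.5% ± 5.2 with dsHMGB1, 33.4% ± 0.71 with LPS and 52.5% ± 0.49 with LPS/IFNγ, so that all libraries of these 3 conditions lay below all PBS and frHMGB1 libraries and those of LPS/IFNγ above those of dsHMGB1 and LPS. *Tlr1*, *Tlr5* and *Tlr6* together made up 6.23% ± 1.57 in PBS, 7.43% ± 0.39 with frHMGB1, 13.4% ± 0.66 with dsHMGB1, 10.4% ± 0.22 with LPS and 16.1% ± 0.57 with LPS/IFNγ. The largest single share belonged to *Tlr13* in PBS (39.996% ± 8.3) and frHMGB1 (34.8% ± 0.32), to *Tlr2* with dsHMGB1 (48.9% ± 6.1) and LPS (54.6% ± 0.98), and to *Tlr7* with LPS/IFNγ (36.3% ± 0.49). *Tlr13* was at 1.46% ± 0.043 with LPS/IFNγ. Shares of a whole are not independent of each other, and *Tlr2*, whose counts also rose, went from 11.97% ± 6.2 in PBS to the shares just given. In PBS replicate 3, *Tlr13* took 49.5% and *Tlr8* 1.43%.

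**Figure D5:**
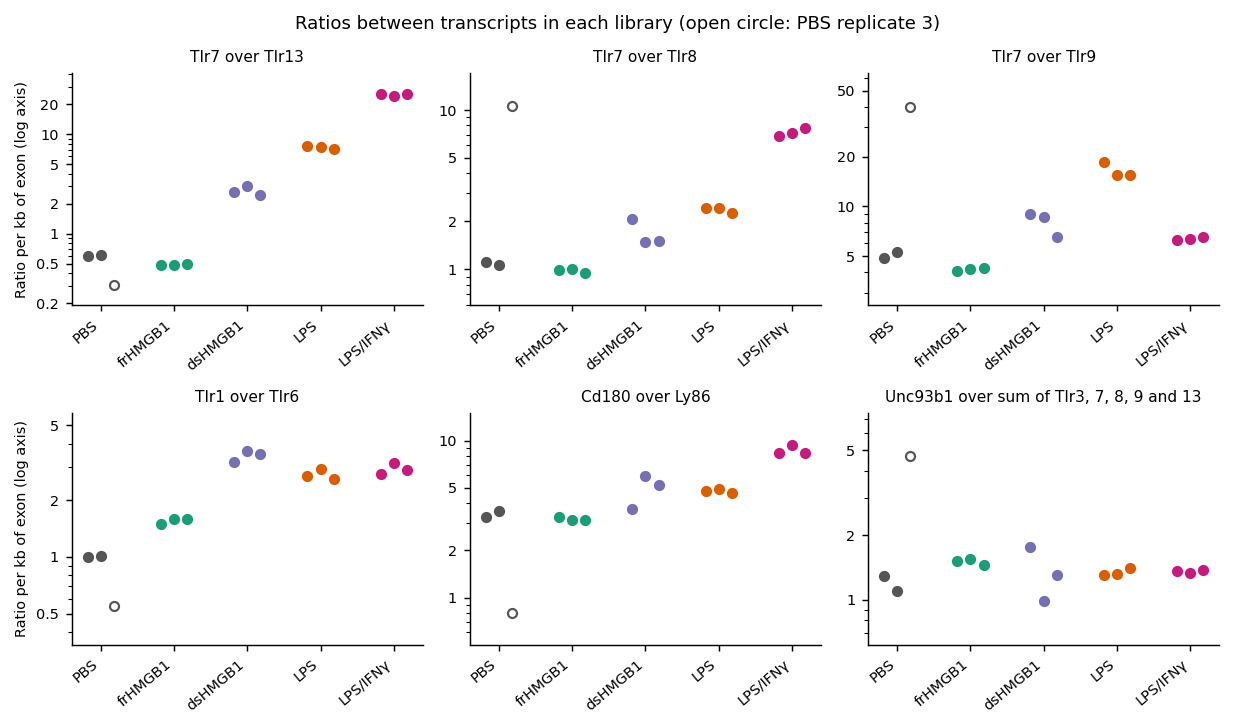
Ratios of normalized counts per kb of exon (y axis, log scale) between pairs of transcripts in each library, with an open circle for PBS replicate 3. *Tlr7* over *Tlr13* climbed from 0.307 to 0.618 in PBS to 23.8 to 25.5 with LPS/IFNγ, whereas *Unc93b1* over its 5 client receptors stayed between 0.987 and 1.76 in every library but PBS replicate 3 (4.70).

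Ratios within a library do not depend on how libraries are scaled. *Tlr7* over *Tlr13* was 0.593, 0.618 and 0.307 in PBS and 0.487 ± 0.006 with frHMGB1, then 2.71 ± 0.30 with dsHMGB1, 7.44 ± 0.24 with LPS and 24.9 ± 0.96 with LPS/IFNγ, with no overlap between the last 3. *Tlr7* over *Tlr8*, neighbours and receptors of related ligands, was 1.11, 1.07 and 10.6 in PBS, 0.984 ± 0.031 with frHMGB1, 1.69 ± 0.32 with dsHMGB1, 2.37 ± 0.11 with LPS and 7.23 ± 0.42 with LPS/IFNγ. *Tlr7* over *Tlr9* was 4.90, 5.30 and 39.8 in PBS, 4.16 ± 0.10 with frHMGB1, 8.05 ± 1.32 with dsHMGB1, 16.5 ± 1.7 with LPS and 6.38 ± 0.13 with LPS/IFNγ. The ratios thus separated LPS from LPS/IFNγ in opposite directions for *Tlr8* and *Tlr9*, and PBS replicate 3 was the extreme library in both. *Tlr1* over *Tlr6* was 1.00, 1.02 and 0.547 in PBS, 1.56 ± 0.05 with frHMGB1, 3.47 ± 0.23 with dsHMGB1, 2.74 ± 0.18 with LPS and 2.94 ± 0.20 with LPS/IFNγ, subject to the shared stretches of the pair. *Tlr2* over the sum of its partners *Tlr1* and *Tlr6* was 1.602, 1.565 and 2.372 in PBS. With dsHMGB1 it was 3.66 ± 0.63, with LPS 5.27 ± 0.21 and with LPS/IFNγ 1.84 ± 0.12. All LPS/IFNγ libraries (1.733 to 1.963) lay above PBS replicates 1 and 2 in this ratio and below PBS replicate 3. *Cd180* over *Ly86* was 3.24, 3.55 and 0.804 in PBS, 4.94 ± 1.14 with dsHMGB1, 4.79 ± 0.14 with LPS and 8.71 ± 0.64 with LPS/IFNγ. *Unc93b1* over the sum of its 5 endosomal clients was 1.30, 1.10 and 4.70 in PBS, 1.51 ± 0.05 with frHMGB1, 1.35 ± 0.39 with dsHMGB1, 1.34 ± 0.05 with LPS and 1.36 ± 0.02 with LPS/IFNγ. Outside PBS, every library lay within the range of the dsHMGB1 libraries, 0.987 to 1.76.

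Ordered by level per kb of exon, *Unc93b1* was first in all 5 conditions, with 13117 ± 2232 normalized counts per kb in PBS and 16427 ± 271 with LPS. In PBS *Tlr13* (3683 ± 1084), *Cd180* (3171 ± 1400), *Tlr7* (1989 ± 1083) and *Tlr8* (1623 ± 1357) followed, and their spreads overlapped. Without PBS replicate 3 (n = 2) they were at 4301 ± 230, 3979 ± 51, 2608 ± 216 and 2398.5 ± 260.7. The first pair, *Tlr13* and *Cd180*, then lay apart from *Tlr7* and *Tlr8*. *Tlr9* (347.0 ± 284.3), *Tlr6* (301.1 ± 40.9), *Tlr1* (264.3 ± 108.6) and *Tlr3* (73.4 ± 23.8) came last among the tested members, and with PBS replicate 3 included the wide spread of *Tlr9* reached both *Tlr8* above and *Tlr3* below. In LPS/IFNγ the order after *Unc93b1* was *Cd180* (9740 ± 576), *Tlr7* (6784 ± 198), *Tlr1* (2248 ± 22), *Tlr9* (1063 ± 12), *Tlr8* (939.2 ± 26.9), *Tlr6* (766.5 ± 55.6), *Tlr3* (760.9 ± 63.3) and *Tlr13* (272.1 ± 11.3), of which only *Tlr6* and *Tlr3* lay within 1 SD of each other. Across conditions, each of the 9 tested members has 4 pairs of neighbouring conditions in the order of its mean, 36 in all. Of these, 10 were called different with all libraries and 23 without PBS replicate 3. No such count was made over all tested genes, where calls also rose without that library. In dsHMGB1 over LPS, for example, the shares higher and lower went from 15.8% and 10.6% to 25.6% and 23.3%. Neighbours called with all libraries were frHMGB1 and PBS for *Tlr1*, LPS/IFNγ and frHMGB1 for *Tlr1*, *Tlr6* and *Tlr3*, dsHMGB1 and frHMGB1 for *Cd180* and *Tlr7*, dsHMGB1 and LPS/IFNγ for *Tlr6*, and 3 of the 4 pairs of *Tlr13*.

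The genes that work with these receptors are described from lists made by function. Of the other Tlr genes, *Tlr2* rose in all 4 stimulations, from 3012 ± 184 normalized counts in PBS to 5034 ± 83 with frHMGB1 (log2 fold change 0.74 ± 0.06, adjusted p = 8.90e-05), 48753 ± 2199 with dsHMGB1 (4.02 ± 0.06), 60246 ± 850 with LPS (4.32 ± 0.06) and 16687 ± 676 with LPS/IFNγ (2.47 ± 0.06), and the changes were 0.70, 3.97, 4.27 and 2.42 without PBS replicate 3. *Tlr4* was called lower in LPS/IFNγ (−0.70 ± 0.28, 0.0303), where PBS replicate 3 (1445) was below the 3 LPS/IFNγ libraries (1709 to 1786), and no other difference of *Tlr4* from PBS was called. Without that library the LPS/IFNγ value of *Tlr4* was −1.03 ± 0.13 (2.03e-07). *Tlr12* was at most 21.2 and *Tlr11* at most 16.9 normalized counts. The tested partners of surface receptors were *Cd14*, *Ly96*, *Ly86*, *Lbp* and *Cd36*, and *Tril* failed the filter. Of these 5, 0 were called in frHMGB1 by edgeR (1.31% of all tested genes higher and 5.69% lower). In dsHMGB1, LPS and LPS/IFNγ 2, 4 and 3 were higher (23.3%, 26.7% and 29.0%) and 0 lower (24.2%, 36.2% and 31.2%). For these counts of 0, an unadjusted p under 0.05 was found for 1 gene, *Ly86* lower in LPS/IFNγ, and DESeq2 called 0. The largest of these changes were those of *Cd14*, a co-receptor for LPS, in dsHMGB1 (2.72 ± 0.20, 2.15e-08) and LPS (3.10 ± 0.20, 4.51e-09), and of *Ly96* (MD-2), which binds LPS on *Tlr4*, in LPS/IFNγ (2.08 ± 0.15, 1.64e-08). These 3 values without PBS replicate 3 were 3.05, 3.43 and 2.21, all called. Over the list, 1, 3, 4 and 3 partners were higher and 0, 1, 1 and 1 lower in frHMGB1, dsHMGB1, LPS and LPS/IFNγ in that fit. Of all tested genes 8.41%, 29.8%, 32.9% and 33.3% were higher there and 9.09%, 29.0%, 38.3% and 34.4% lower.

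Genes for folding and export in the endoplasmic reticulum were split. Of 6, *Tmed7*, *Lrrc59* and *Nrros* were called higher and *Hsp90b1*, *Cnpy3* and *Cnpy4* lower in dsHMGB1 (23.3% and 24.2% of all tested genes). In LPS 1 was higher and 4 were lower (26.7% and 36.2%), and in LPS/IFNγ 2 and 4 (29.0% and 31.2%). With frHMGB1 *Nrros* was higher (0.41 ± 0.08, adjusted p = 0.0136, against 1.31% of all tested genes). *Cnpy3*, which with the heat shock protein *Hsp90b1* (gp96) folds most Toll-like receptors, fell from 4850 ± 114 normalized counts in PBS to 2353 ± 189 with dsHMGB1 (−1.04 ± 0.07, 2.17e-07), 1602 ± 47 with LPS (−1.60 ± 0.07, 1.46e-09) and 1353 ± 64 with LPS/IFNγ (−1.84 ± 0.07, 4.38e-10). *Hsp90b1* also fell, with log2 fold changes of −0.52 ± 0.14 with dsHMGB1 (0.00229), −0.72 ± 0.14 with LPS (5.84e-05) and −0.64 ± 0.14 with LPS/IFNγ (0.000234). *Lrrc59*, reported to bind endosomal receptors in the endoplasmic reticulum, had the largest change of the list in these 3 conditions, 1.59 ± 0.23 (8.76e-05), 2.09 ± 0.23 (6.02e-06) and 2.23 ± 0.23 (2.60e-06). Without PBS replicate 3 the changes in these conditions were −1.03, −1.59 and −1.84 for *Cnpy3*, −0.30, −0.51 and −0.43 for *Hsp90b1*, and 1.30, 1.796 and 1.94 for *Lrrc59*, and the counts of calls of this list over PBS were the same.

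Of the 15 genes of endolysosomal function, 14 were tested and the TASL gene was not analysed here. In frHMGB1 0 were called by edgeR (1.31% of all tested genes higher and 5.69% lower), 0 had an unadjusted p under 0.05 and DESeq2 called 0. In dsHMGB1 3 were higher and 7 lower (23.3% and 24.2%), in LPS 4 and 7 (26.7% and 36.2%), and in LPS/IFNγ 4 and 8 (29.0% and 31.2%). With PBS replicate 3 removed the counts were 1 and 0 with frHMGB1, 3 and 8, 5 and 6, and 4 and 8. The shares of all tested genes were then 8.41% and 9.09%, 29.8% and 29.0%, 32.9% and 38.3%, and 33.3% and 34.4%. *Slc15a3*, an endolysosomal transporter, and the lysosomal ribonucleases *Rnaset2a* and *Rnaset2b* were higher in all 3 conditions. The largest change was that of *Rnaset2b*, with 5.21 ± 0.20 with LPS (adjusted p = 5.18e-11), 2.68 ± 0.20 with dsHMGB1 (3.06e-08) and 3.86 ± 0.20 with LPS/IFNγ (5.58e-10), although *Rnaset2a* and *Rnaset2b* are near-identical copies whose reads the counting could have split. Its values without PBS replicate 3 were 5.15, 2.62 and 3.80. *Ctsk*, *Slc29a3*, *Pld4* and *Dnase2a* were called lower in all 3 conditions with and without PBS replicate 3. *Lgmn* was called lower in all 3 with all libraries, but in LPS (−0.28 ± 0.16, adjusted p = 0.0426) the value was −0.03 ± 0.07 (0.270) without PBS replicate 3, against −0.20 ± 0.07 in dsHMGB1 and −0.11 ± 0.07 in LPS/IFNγ, both still called. *Ctsk* and *Lgmn* are proteases, *Pld4* and *Dnase2a* degrade nucleic acids, and *Slc29a3* exports nucleosides from lysosomes. The list medians were −0.28, −0.15 and −0.30, against −0.10, −0.21 and −0.12 for all tested genes.

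Over the 15 libraries, Pearson's r of log2(normalized count + 1) described which members and which other genes ran alike, with the groups, the depth and PBS replicate 3 shared by all points. *Tlr6* and *Tlr3* had r = 0.990, *Cd180* and *Tlr7* 0.981, and *Tlr1* and *Tlr6* 0.977. *Tlr8* and *Tlr9* had r = 0.707 with PBS replicate 3 and −0.645 without it (14 libraries). *Tlr13* and *Cd180* had r = −0.700, and −0.866 without that library. Of 10102 protein-coding genes averaging 100 normalized counts or more, those most like *Tlr1* were *Gsap*, *Rbpj* and *Ccnj* (r = 0.990 to 0.994), those most like *Tlr6* *Agtrap*, *Appl1* and *Trim21* (0.995 each), and those most like *Tlr3* *Agrn*, *Ddx58* and *Appl1* (0.997 to 0.999). For *Cd180* they were *Arcn1*, *Zfp131* and *Slc23a2* (0.993 to 0.995), for *Tlr7* *Atl3*, *Xrn1* and *Rdx* (0.995 to 0.997), for *Tlr13* *Wdr91*, *Numbl* and *Apobec1* (0.990 to 0.995), and for *Unc93b1* *H2-Ab1*, *Ctu2* and *Psmb10* (0.968 to 0.974). The r of the nearest genes of *Tlr8* (*Pkd2*, *Slc24a5* and *Taf2*, 0.978 to 0.986) was 0.896 to 0.946 without PBS replicate 3.

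In the promoter windows searched, printed above or not, the interferon-stimulated response element was found in 2 of 8 members with a window (8.53% of all windows). These were *Tlr6* and *Tlr8*, of which the first was called higher in LPS/IFNγ over PBS. The second had its lowest values there apart from PBS replicate 3. In LPS/IFNγ over LPS both had negative log2 fold changes, −0.41 for *Tlr6* (called) and −1.60 for *Tlr8* (called without PBS replicate 3). The PU.1 match was found in 2 of 8 (*Tlr1* and *Tlr9*, 3.11% of all windows), the AP-1 match in *Tlr9* alone (7.79%) and the NF-kB match in *Tlr3* alone (1.12%). These shares are per window, and *Tlr1*, *Tlr6* and *Cd180* had 2 windows each. *Tlr13*, *Cd180* and *Tlr5* had none.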

How the data were processed

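Poly(A) RNA of 15 cultures was sequenced in paired ends from stranded libraries. The authors demultiplexed with CASAVA, aligned with STAR to GRCm38 and used DESeq2. The counting program, with its annotation and strand setting, was not given in the sources used here. The deposited table holds raw read counts per gene, 1 column a library, not normalized, for 51763 Ensembl identifiers, of which 51661 are in GENCODE M21, the source of symbols, positions and exon lengths.

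Counts were tested with edgeR 4.0.16 (quasi-likelihood F test, TMM scaling, filterByExpr with 10 counts and 15 in total) in 1 fit of all libraries, in R 4.3.3, and a gene was called at a Benjamini-Hochberg adjusted p under 0.05 over 16919 genes. Normalized counts, log2 fold changes and standard errors came from DESeq2 1.42.0. The model fits were tested on simulated data. Groups came from the sample labels. Deviations from the group mean correlated with r above 0.1 in 1 of 30 pairs of same-numbered libraries. Pairs of unequal number were not compared, so this does not exclude pairing. Precision is limited by the spread between libraries rather than by depth. Every member was named whatever its values. From the other lists, counts were given with values for *Tlr2*, *Tlr4*, *Ly86*, *Hsp90b1*, *Cnpy3* and the called gene of largest change, and further names were chosen after their values were seen. The members and lists were chosen with earlier results of these data known. Alternatives were another test, scaling, filter, threshold or set of libraries. Likeness between genes used a pseudocount of 1. Promoter sequences are from RefSeq. A motif and the genes most like *Tlr9* are not reported here.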

Additional observations from a re-analysis of the deposited data

How the results depend on the processing

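Of 72 values (9 members in 8 comparisons), none changed its call or direction with DESeq2's size factors in edgeR, and 4 gained a call with the DESeq2 Wald test. Without PBS replicate 3, 24 gained a call, and 1 more, *Tlr9* in LPS over PBS, was called with its direction reversed. Requiring a log2 fold change past 2 with no p gave 0 members higher in frHMGB1 over PBS and 2 in each of dsHMGB1, LPS and LPS/IFNγ over PBS. Of all 16919 tested genes, 103, 1427, 1839 and 2047 were higher in these comparisons. It gave 2 members higher in dsHMGB1 over frHMGB1 (2323 genes), 0 over LPS (1160) and 1 over LPS/IFNγ (437). It gave 0 members lower in dsHMGB1 over PBS (806 genes), in dsHMGB1 over frHMGB1 (713) and in LPS/IFNγ over LPS (253). Testing against a 2-fold change gave 0 higher in frHMGB1 (19 of 16919 genes). It gave 3 higher and 0 lower in dsHMGB1 over PBS (1693 and 964 genes) and over frHMGB1 (2376 and 1020). It also gave 0 higher in dsHMGB1 over LPS (689) and 1 over LPS/IFNγ (419). In LPS/IFNγ over LPS 1 was lower (176), and 3 of the 36 neighbouring pairs were called. Protein-coding genes alone gave 0 higher in frHMGB1 (41 of 13025 genes). Fits of 2 conditions alone gave 0 higher in frHMGB1 (7 of 14887 genes) and 3 in dsHMGB1 over PBS (2493 of 15883). They gave 3 higher and 2 lower in dsHMGB1 over LPS (3761 and 3224 of 14872), and 6 and 3 over LPS/IFNγ (4296 and 4284 of 15494). They gave 1 and 6 in LPS/IFNγ over LPS (4564 and 4435 of 14738), 8 higher in dsHMGB1 over frHMGB1 (5303 of 15294), and 19 neighbouring pairs. For dsHMGB1 over LPS/IFNγ, the DESeq2 Wald test gave 4 higher (3104 of 16919 genes) and no filter on low counts 1 (2349 of 29051).

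Scaling to the library total, chosen after seeing the data, gave 0 higher in frHMGB1 (184 of 16919 genes). It gave 2 lower in LPS over PBS (9458 genes) and 2 lower in LPS/IFNγ over PBS (8782). It gave 2 higher in dsHMGB1 over LPS (4661) and 5 over LPS/IFNγ (4806). It reversed *Unc93b1* in LPS over PBS (−0.35), in LPS/IFNγ over PBS (−0.64) and in dsHMGB1 over LPS (0.24, adjusted p = 0.0300), by an amount near the shift of the median gene. On CPM of the library total the surface medians were 1.05 in LPS and 0.88 in LPS/IFNγ, and the endosomal medians 0.019 and 0.83. *Tlr9* in LPS over PBS was reversed without PBS replicate 3 (edgeR log2 fold change −0.37, adjusted p = 0.0205, against up to 0.56 without PBS replicate 2), and the cause was not tested.

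Leaving out 1 library at a time, the members called higher and lower over PBS were 0 to 1 and 0 to 1 in frHMGB1, 5 to 7 and 1 in dsHMGB1, 5 to 6 and 1 to 2 in LPS, and 5 to 6 and 1 to 2 in LPS/IFNγ. They were 1 to 3 and 0 to 3 in dsHMGB1 over LPS, 1 to 6 and 0 to 3 over LPS/IFNγ, 0 to 1 and 2 to 6 in LPS/IFNγ over LPS, and 4 to 8 and 1 in dsHMGB1 over frHMGB1, with 8 to 23 neighbouring pairs. Shares of all genes higher and lower over PBS were, in order, 1.31% and 5.69%, 23.3% and 24.2%, 26.7% and 36.2%, and 29.0% and 31.2%. Without PBS replicate 3 they rose to 8.41% and 9.09%, 29.8% and 29.0%, 32.9% and 38.3%, and 33.3% and 34.4%. Between stimulations, in the order above, they were 15.8% and 10.6%, 16.5% and 16.7%, 16.3% and 9.36%, and 27.7% and 23.1%. Those rose to 25.6% and 23.3%, 27.9% and 25.4%, 25.1% and 24.3%, and 35.8% and 32.9%. No such share was computed for neighbouring pairs. Surface medians ranged over 0.12 to 0.66, 1.63 to 1.82, 1.65 to 1.84 and 1.28 to 1.83, and endosomal medians over −0.11 to 0.32, 0.42 to 1.49, 0.24 to 1.32 and 1.05 to 2.03, in the order frHMGB1, dsHMGB1, LPS and LPS/IFNγ.

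Whether replicate numbers pair the libraries was not settled. Deviations of same-numbered libraries from their group means had r from −0.386 to 0.375, and pairs of unequal number were not compared. With the replicate number as a block 71 of 72 values kept their call, the exception being *Tlr6* in LPS/IFNγ over LPS (−0.37, adjusted p = 0.0509), and the members called in dsHMGB1 over PBS were again 5 higher and 1 lower.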
